A study of Mus musculus with 21 samples.

Results

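The annexins described here are 10 genes, Anxa1 to Anxa8, Anxa11 and Anxa13, found by gene name on the array, where 37011 gene names had usable values. They were grouped by name after the differences of Anxa3 and Anxa2 between P1 day-0 cells and fresh hepatocytes were known. All values against fresh hepatocytes are therefore given as a description, without a test. CLiPs, chemically induced liver progenitors, are proliferating cells obtained by culture of mouse hepatocytes. RNA came from cells of female C57BL/6 mice in 7 groups of 3 arrays each. Late CLiPs (passage 12, with replicate 3 at passage 11) were profiled after 8 days with oncostatin M and dexamethasone (induced), after 8 days without them (uninduced), and on day 0. P1 CLiPs (passage 1) were profiled at the same 3 stages, and the last group was freshly isolated hepatocytes, 1 array of which also carries a P1 label. Oncostatin M is a cytokine that matures fetal hepatocytes, and dexamethasone is a synthetic glucocorticoid. The labels do not give the age or number of the mice, nor whether replicates were separate cultures, so the spread between arrays may be technical.

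Annexins are proteins that bind acidic phospholipids of membranes in the presence of calcium. They share a core of similar repeats and differ in the tail before it, through which some bind S100 proteins. They are known from membrane repair, vesicle traffic, the surface activation of plasminogen (Anxa2) and the anti-inflammatory action of glucocorticoids (Anxa1). In the liver, Anxa6 is known as an abundant annexin of hepatocytes, and Anxa13 is best known from epithelia of the gut and kidney.

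The 10 genes were read by 27 probes of 60 bases. Of the probes on RefSeq transcripts, 6 that lie inside the gene, each open in at least 1 reading frame, are printed in lower case, because they repeat or qualify the values of the brightest probe. Their positions are those of the mouse build mm9 given in the scanner files. The Anxa1 probe lies at chr19:20448248-20449761 on the minus strand and the Anxa2 probe at chr9:69330846-69331620 on the plus strand. Both cover far more genome than their length and so cross an intron. The Anxa3 probe lies at chr5:97253925-97253984 (plus strand), the Anxa4 probe at chr6:86691859-86691918 (minus strand), the Anxa11 probe at chr14:26694168-26694227 (plus strand) and the Anxa13 probe at chr15:58173475-58173534 (minus strand).
Anxa1 probe: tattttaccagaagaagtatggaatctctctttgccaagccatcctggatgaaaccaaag
Anxa2 probe: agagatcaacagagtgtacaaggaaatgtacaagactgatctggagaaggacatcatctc
Anxa3 probe: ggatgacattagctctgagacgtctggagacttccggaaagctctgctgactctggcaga
Anxa4 probe: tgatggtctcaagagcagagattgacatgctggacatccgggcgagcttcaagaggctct
Anxa11 probe: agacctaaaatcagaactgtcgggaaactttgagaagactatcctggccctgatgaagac
Anxa13 probe: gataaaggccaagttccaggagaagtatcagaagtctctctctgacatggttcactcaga

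RefSeq promoter windows (GRCm38.p6, 250 bases before the start and 50 after it) were found for 7 of the 10 genes. They were searched on both strands for TGANTCA (AP-1), GGAATG (TEAD), TTCNNNGAA (STAT) and AGAACA with TGTTCT 3 bases after it (glucocorticoid receptor). Anxa2 held the single AP-1 match, 95 bases before the start, and Anxa1 the single TEAD match, 236 bases before it on the opposite strand. Among 17492 windows of protein-coding genes, 1 per gene, 7.08% held the AP-1 letters, 13.4% the TEAD letters, 7.83% the STAT letters and 0.00572% the glucocorticoid receptor letters. The 2 windows with a match are printed up to the start, with the matched letters in capitals, as Anxa1 and Anxa2 were among the annexins far above the fresh level in all CLiP groups. They lie at chr19:20390672-20390921 (Anxa1, minus strand) and chr9:69453433-69453682 (Anxa2, plus strand). A match is a run of letters, and binding was not measured.
Anxa1 promoter: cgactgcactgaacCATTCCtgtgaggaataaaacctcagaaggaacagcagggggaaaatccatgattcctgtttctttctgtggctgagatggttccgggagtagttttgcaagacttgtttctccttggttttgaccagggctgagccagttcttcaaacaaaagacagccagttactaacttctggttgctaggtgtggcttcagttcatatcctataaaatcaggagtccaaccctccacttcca
Anxa2 promoter: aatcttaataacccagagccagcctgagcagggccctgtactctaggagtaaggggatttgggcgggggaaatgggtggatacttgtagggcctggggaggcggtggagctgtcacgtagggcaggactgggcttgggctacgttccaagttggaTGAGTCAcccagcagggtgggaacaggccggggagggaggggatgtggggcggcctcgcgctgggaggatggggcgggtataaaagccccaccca

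Levels are log2 processed signals minus the 75th percentile of the array, so a level of 0 is that percentile, and levels of different genes are not compared. For each gene the brightest probe, averaged over the 21 arrays, was used. Calls needed a change of 2-fold or more and a limma p under 0.05 after Benjamini-Hochberg adjustment over all tested genes, and only called genes are said to have risen or fallen. All 10 annexins could be tested. The 75th percentile signal was 881 to 1241 on late, 466 to 789 on P1 and 291 to 332 on fresh arrays, with 46.1% to 60.5% of all probes above background by the scanner's flag. Late arrays were read with another scanner and software version and lay on other slides than P1 arrays, so passage, scan and slide cannot be told apart in levels set across them. The 3 fresh arrays lay on slides without CLiP arrays, so slide and cell state cannot be told apart in any value against fresh.

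**Figure D1:**
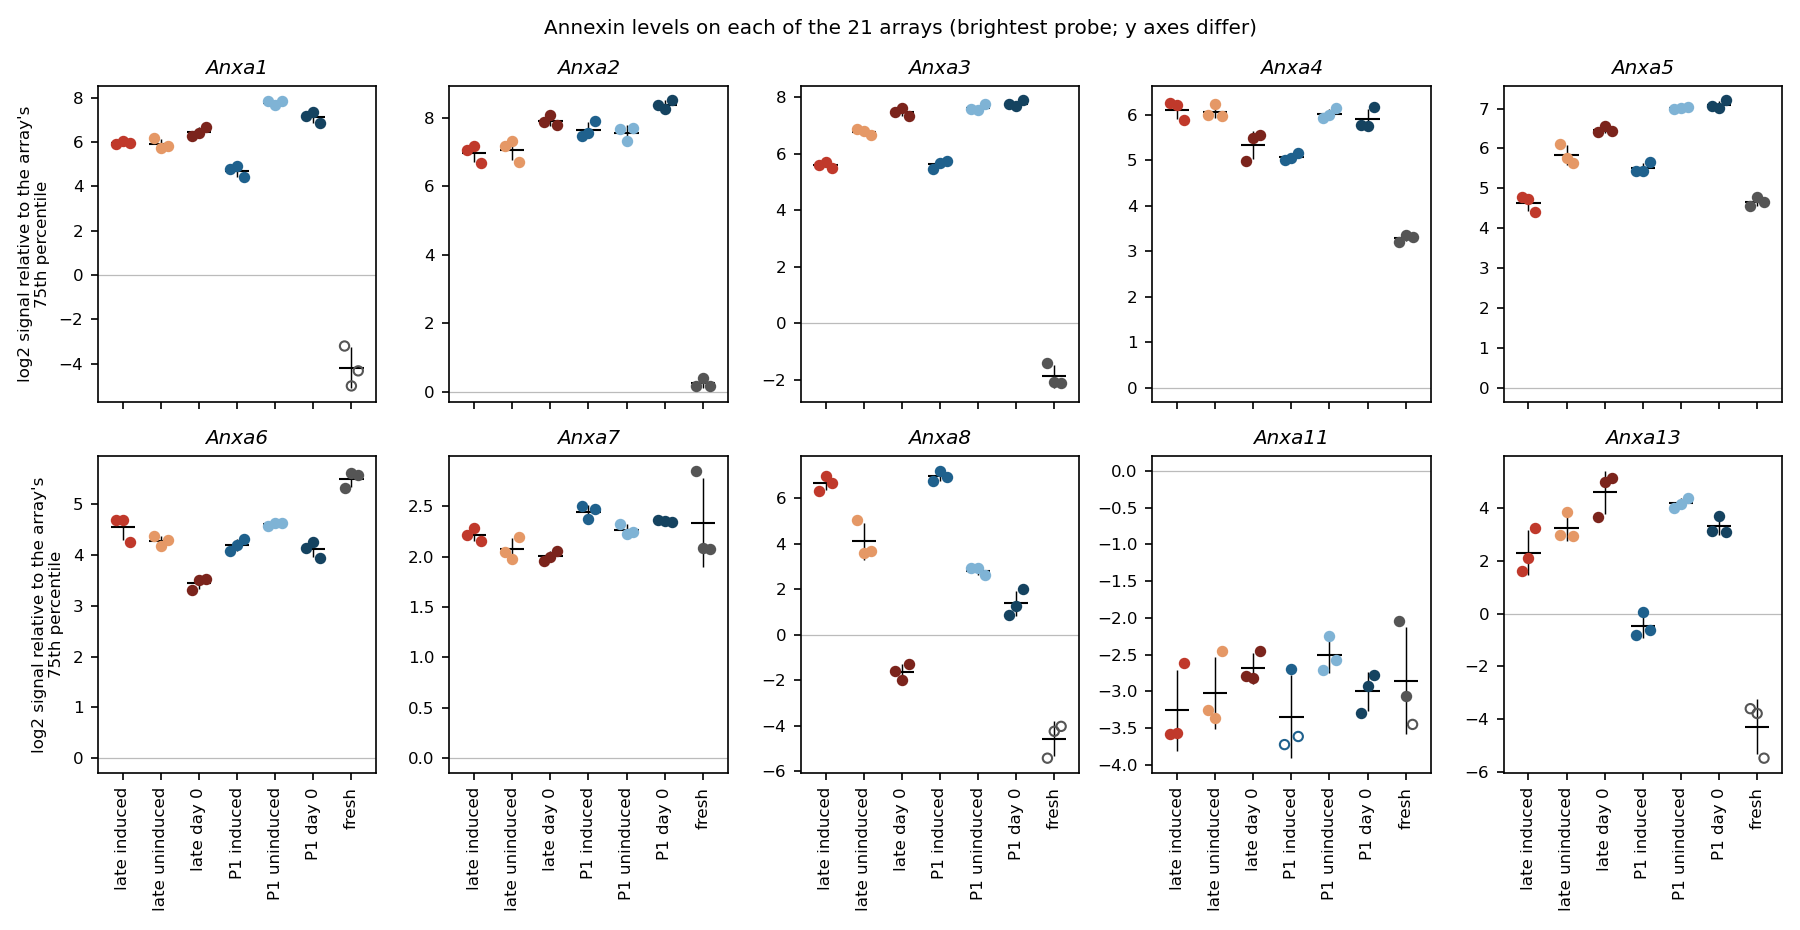
Levels of the 10 annexins (log2 signal relative to the array's 75th percentile, y axis) on each of the 21 arrays, by group (x axis). Points are arrays, open where the probe was not well above background, and bars are the mean and SD of 3 arrays. Anxa1, Anxa2 and Anxa3 lie far above the fresh arrays in every CLiP group, while Anxa8 and Anxa13 separate the induced from the uninduced P1 arrays in opposite directions.

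In P1 day-0 CLiPs, 7 of the 10 annexins were at least 2-fold above fresh hepatocytes and 1, Anxa6, was at least 2-fold below. The difference of Anxa6 was -1.39, and its 3 alternatives gave -1.18 to -0.61, so the 2-fold difference did not hold in all of them, while 7 annexins were at least 2-fold above fresh in each. Over all 20631 genes of that comparison, 25.6% were at least 2-fold higher and 25.4% at least 2-fold lower. The median difference of the 10 annexins was 4.28, beside -0.0091 over all genes. Of the 10 annexins, 6 were higher and 0 lower in late induced cells than in fresh hepatocytes (25.1% and 26.9% of all genes), 7 and 1 in late uninduced cells (25.7% and 29%), and 7 and 1 in late day-0 cells (26.1% and 29.4%). For P1 cells the counts were 6 and 1 in induced (20.7% and 19%) and 7 and 0 in uninduced cells (24.5% and 25%). No support is read from these counts, since the differences of Anxa3 and Anxa2 were known when the genes were grouped.

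Anxa1 had levels of 7.15, 7.36 and 6.83 on P1 day-0 arrays, against -3.20, -5.00 and -4.32 on fresh arrays, where its brightest probe was not well above background on any array. In the processed signal of that probe Anxa1 differed by at least 1340-fold, a bound set by the lowest signal well above background on the fresh arrays, which holds for that probe and signal only. Its intron-crossing probe, printed above, was well above background on 2 of 3 fresh arrays and gave a smaller difference, 9.29 on the log2 scale. The 3 alternatives ranged from 6.16, by the mean of all 4 Anxa1 probes, to 11.2. Anxa2 had levels of 8.39, 8.27 and 8.51 on P1 day-0 arrays and of 0.17, 0.40 and 0.17 on fresh arrays. Anxa3, an annexin with a short tail, had levels of 7.76, 7.70 and 7.90 on P1 day-0 arrays and of -1.41, -2.09 and -2.13 on fresh arrays. The P1 day-0 and fresh arrays did not overlap for any of these 3 genes, with differences of 8.14 for Anxa2 and 9.66 for Anxa3. On late day-0 arrays their levels were again far above fresh: the difference of the brightest probe was at least 847-fold for Anxa1, 7.67 for Anxa2 and 9.36 for Anxa3. The intron-crossing Anxa1 probe gave 8.64, and the alternatives gave 5.21 or more for Anxa1, 6.05 or more for Anxa2 and 6.66 or more for Anxa3.

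By the processed signal of the brightest probe, Anxa13 was at least 96.6-fold and Anxa8 at least 25.5-fold above fresh on P1 day-0 arrays. Normexp correction gave smaller differences, 5.21 for Anxa13 and 3.55 for Anxa8, and for late day-0 Anxa8 a difference of 0.78, under 2-fold. Both were below the background threshold on all 3 fresh arrays. Anxa4, an annexin of secretory epithelia, averaged 5.89 ± 0.23 on P1 day-0 arrays and 3.29 ± 0.07 on fresh arrays (SD, n = 3 each). Anxa5, the phosphatidylserine-binding annexin used to stain dying cells, averaged 7.10 ± 0.10 and 4.66 ± 0.11 in the same groups. Each of these 4 genes had all P1 day-0 arrays above all fresh arrays. How many of all genes did so was not counted, here or for the other genes said not to overlap.

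Anxa6, whose protein carries a pair of annexin cores, was the exception in direction, with levels of 4.14, 4.25 and 3.95 on P1 day-0 arrays and of 5.33, 5.62 and 5.58 on fresh arrays. Fresh hepatocytes were its highest group and late day-0 CLiPs its lowest, 2.05 below them. The second Anxa6 probe did not repeat the lower level, with a difference of 0.17 at P1 day 0 and of -0.25 at late day 0. Anxa7 and Anxa11, annexins with long tails, differed from fresh by 0.013 and -0.15 at P1 day 0, within the spread of their arrays. The Anxa7 probes disagreed: the second brightest probe differed by 0.64 and the dimmest by -1.56. The brightest Anxa11 probe lies on a cDNA clone and was near background, and the RefSeq probe printed above differed by -0.36.

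**Figure D2:**
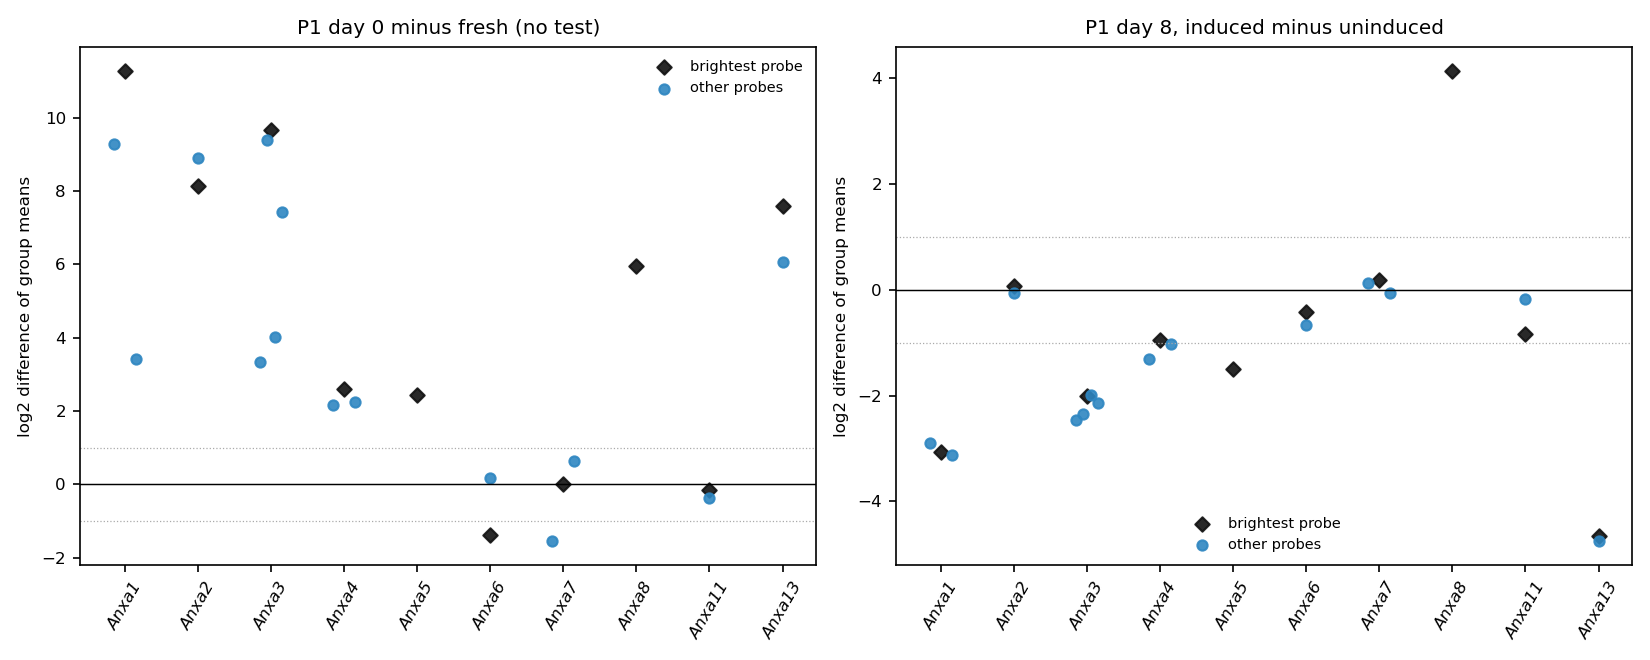
Differences of group means (log2, y axis) for each tested probe of the 10 annexins (x axis), P1 day 0 minus fresh on the left and P1 induced minus uninduced on the right. Diamonds are the brightest probes, circles the others, and dotted lines mark 2-fold. Probes of Anxa6 and Anxa7 lie on both sides of 0 against fresh, and dim probes of Anxa1 and Anxa3 show smaller differences there, while probes of Anxa1, Anxa3 and Anxa13 lie close together for induction.

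The other cells that a hepatocyte preparation can hold were followed by their markers. The summed signal of 10 hepatocyte markers, in multiples of the 75th percentile, was 76.7 to 187 on late day-0 arrays, 950 to 1210 on P1 day-0 arrays and 4410 to 5270 on fresh arrays. The 8 biliary and progenitor markers summed to 295 to 328 on late day-0 arrays, 441 to 468 on P1 day-0 arrays and 1.87 to 3.11 on fresh arrays. For the 10 stellate cell and fibroblast markers the sums were 30.8 to 32.7, 44.3 to 71.6 and 12.3 to 16.9. Endothelial markers (8 genes) summed to 0.341 to 0.48, 0.62 to 1.01 and 11.3 to 18.6, macrophage markers (8 genes) to 3.29 to 3.98, 3.47 to 4.09 and 11 to 38.5, and mesothelial markers (6 genes) to 17.1 to 56.7, 12.8 to 28.2 and 0.314 to 0.422, in the same order of groups. A sum is set mostly by its brightest genes. By gene, the median difference of the 10 hepatocyte markers from fresh was -5.74 at P1 day 0 and -10.16 at late day 0. Serpina1a was at 10.47 on fresh and 9.13 on P1 day-0 arrays, while Cyp2e1, at 9.44 on fresh arrays, was not well above background on any day-0 array. Of the 8 endothelial genes, Kdr, Cdh5, Lyve1 and Tek were not well above background on any CLiP array, while Pecam1 and Stab2 were on all 18. Of the 8 macrophage genes, Adgre1, Cd5l and Timd4 were not on any CLiP array, while Csf1r and Cd68 were on all 18, and Csf1r was at 4.15 on P1 uninduced arrays, against 2.79 on fresh arrays. Of the 10 stellate cell and fibroblast genes, Col1a1, Col3a1 and Lum were well above background on all 9 P1 arrays and on none of the 9 late arrays, while Acta2 and Des were on all 9 late arrays, with Acta2 at 4.98 on late day-0 arrays and 2.81 on fresh arrays. Sums of 6 neutrophil and lymphocyte markers were 6.76 to 14.7 over all arrays. Of the 8 biliary and progenitor genes, Spp1 was at 7.91 on late day-0 and -0.21 on fresh arrays. At late day 0, 7 of the 8 were at least 2-fold above fresh and 1, Prom1, below (-3.72 against -2.12), where 26.1% and 29.4% of all genes were. The median difference of the 8 from fresh was 7.90 at P1 day 0 and 3.64 at late day 0. Mesothelial Msln was well above background on all CLiP arrays and Upk3b on none. Krt5 of the mesothelial list was at -3.65 on late day-0 and -2.47 on fresh arrays. In bulk RNA, more cells of a type and more RNA per cell cannot be told apart, and the part of biliary, stellate or mesothelial cells in the annexin levels was not tested.

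Hepatic induction of P1 CLiPs raised 1 annexin and lowered 4 at day 8, and 5 were not called. Over all 20631 genes tested, 9.68% were called higher and 9.02% lower. The median change of the 10 annexins was -0.89, beside 0.05 over all tested genes. Fold changes compare induced with uninduced cells at day 8. Of 8 known targets of the inducers, 6 rose in P1 cells and 6 in late cells, among them Socs3, the feedback inhibitor of oncostatin M signalling (3.73 in P1), and Fkbp5, a glucocorticoid target (2.21 in P1).

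Anxa8, an annexin described in epithelia, had levels of 6.76, 7.21 and 6.95 on induced and of 2.95, 2.91 and 2.60 on uninduced P1 arrays. It was read by a single probe and rose 17.7-fold (log2 change 4.15, SE 0.36, adjusted p = 6.5e-06). Anxa13 moved the other way, with -0.82, 0.06 and -0.64 on induced and 4.0, 4.15 and 4.39 on uninduced arrays. The log2 change of Anxa13 was -4.65 (SE 0.44, adjusted p = 1.1e-05), and its second probe, printed above, gave -4.76. In neither gene did the groups overlap. Induced Anxa13 was still at least 7.07-fold above fresh in the processed signal of its brightest probe, a bound for that probe and signal only. The second Anxa13 probe was at -2.29 on induced and -4.27 on fresh arrays, where it was not well above background. The 3 alternatives gave log2 differences of 1.68 to 4.04 between induced P1 and fresh arrays.

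Anxa1, known as a glucocorticoid-inducible gene in leukocytes, was lower with dexamethasone and oncostatin M in P1 cells. Its levels were 4.79, 4.92 and 4.4 on induced and 7.82, 7.66 and 7.84 on uninduced arrays. All induced arrays lay below all uninduced ones, and the log2 change was -3.07 (SE 0.36, adjusted p = 5.7e-05), with -2.89 and -3.12 by the other probes tested. Anxa2 had levels of 7.46, 7.55 and 7.90 on induced and of 7.67, 7.32 and 7.71 on uninduced arrays. These overlapped: the change of Anxa2 was 0.069 with a 95% interval of -0.26 to 0.40 (adjusted p = 0.74), and quantile normalization turned its sign (-0.38). The difference between the changes of Anxa1 and Anxa2 was not tested.

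Anxa3 had levels of 5.47, 5.68 and 5.74 on induced P1 arrays, against 7.58, 7.55 and 7.76 on uninduced arrays. Its change was -2.0 (SE 0.18, adjusted p = 7.5e-06), and its 4 other probes gave -1.98 to -2.47, all called. Anxa5 had 5.44, 5.44 and 5.65 on induced and 6.99, 7.0 and 7.05 on uninduced arrays. Its single probe fell by 1.5 (SE 0.10, adjusted p = 8.6e-07), the smallest p of the 10 genes in this comparison. Both genes were still above fresh in induced P1 cells, by 7.50 for Anxa3 and 0.85 for Anxa5.

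Anxa4 changed by -0.95 (SE 0.12, adjusted p = 1.0e-04), just under 2-fold, and was not called, although all induced arrays lay below all uninduced arrays. The Anxa4 probe printed above gave -1.02 and another probe -1.31, both called, as did the mean of all probes (-1.03). Anxa6 changed by -0.42 (adjusted p = 0.013) and Anxa7 by 0.18 (adjusted p = 0.44). Anxa11 changed by -0.84 (adjusted p = 0.083) by its clone probe, and by -0.17 by the RefSeq probe. Anxa6, Anxa7 and Anxa11 thus stayed under 2-fold in the main fit. The clone probe of Anxa11 passed 2-fold within slide 4 (-1.25, with 1 induced array), and was called lower without induced replicate 2 (-1.16, adjusted p = 0.025).

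The P1 arrays lay on 2 slides, each with all 3 stages. Slide 4 held 1 induced and 2 uninduced arrays, and slide 5 held 2 induced and 1 uninduced, so the values within a slide are given as sizes only. Within slide 4 and slide 5 the changes were -2.95 and -3.18 for Anxa1, -2.09 and -2.05 for Anxa3, -1.55 and -1.5 for Anxa5, 3.83 and 4.47 for Anxa8, and -4.90 and -4.68 for Anxa13. In the same comparison 7 of 10 hepatocyte markers were called higher (median 2.11). Of 8 biliary and progenitor markers 4, Krt19, Krt7, Epcam and Prom1, were called lower and 1, Spp1, higher (median -1.45). Over all genes 9.68% were called higher and 9.02% lower. Among other cells' markers, the stellate and fibroblast sums were 60.2 to 139 on induced and 23.9 to 78.8 on uninduced P1 arrays, and the mesothelial sums 3.95 to 7.43 and 5.47 to 14. Macrophage marker sums were 7.98 to 10.2 on induced and 17.1 to 22.8 on uninduced arrays, with Adgre1 and Cd5l not above background and Csf1r called lower (-1.18). Their part in the changes was not tested.

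**Figure D3:**
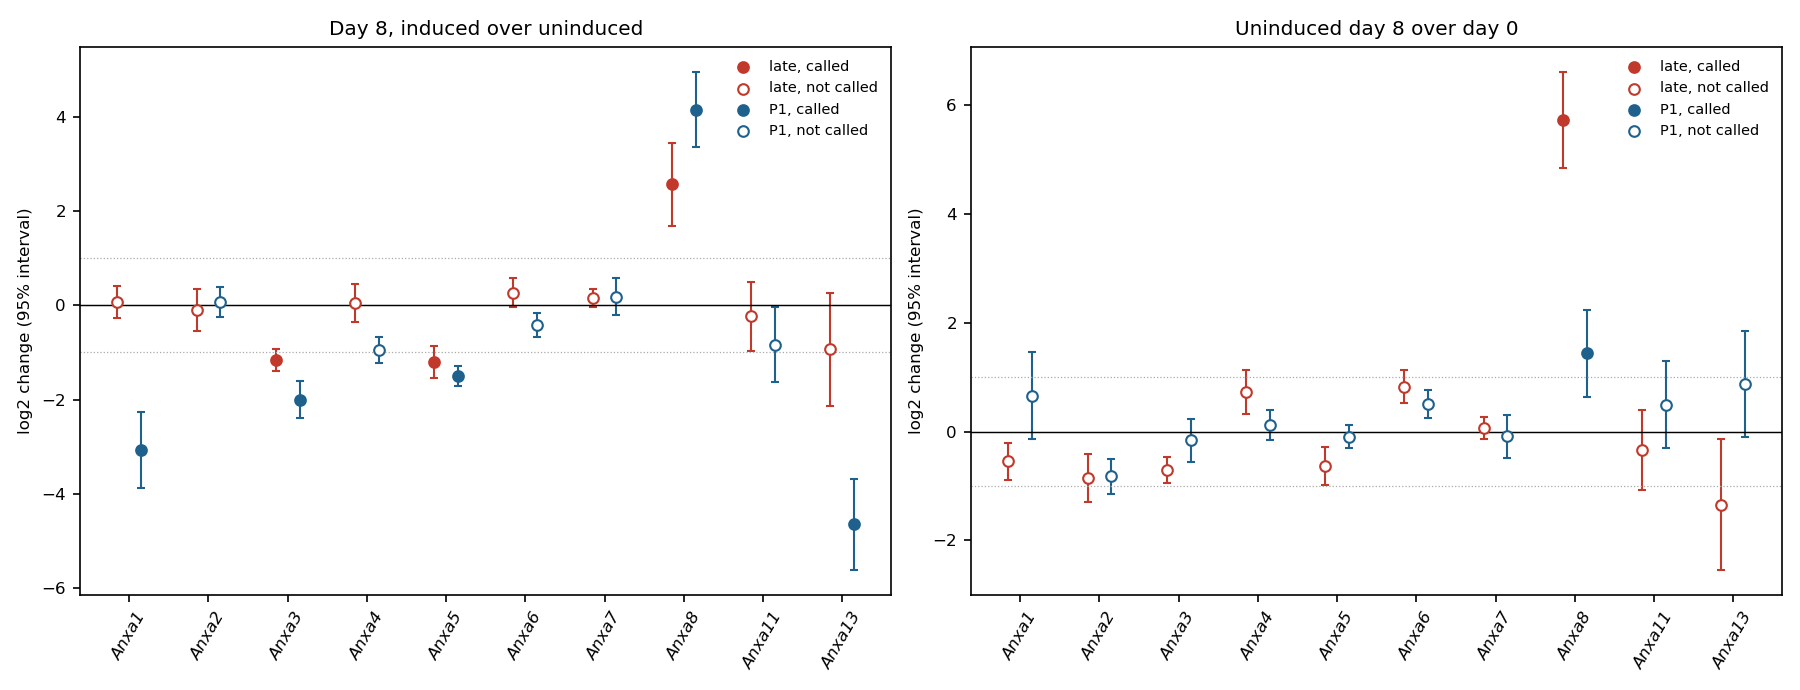
Log2 changes of the 10 annexins (points, with 95% intervals from limma, y axis) for induced over uninduced day-8 cells (left) and for uninduced day-8 over day-0 cells (right), late in red and P1 in blue. Filled points were called, open points were not, and dotted lines mark 2-fold. Anxa8 rises in all 4 comparisons, Anxa3 and Anxa5 fall with induction at both passages, and Anxa1 and Anxa13 fall with induction at P1 with no call in late cells.

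Induction of late CLiPs raised Anxa8 and lowered Anxa3 and Anxa5, and 7 annexins were not called. Over 21326 genes tested, 2.94% were called higher and 3.06% lower, and the median change was -0.029 for the annexins and 0.04 over all genes. Anxa8 had levels of 6.33, 6.97 and 6.68 on induced and of 5.02, 3.61 and 3.68 on uninduced late arrays, without overlap. Its change was 2.56 (SE 0.38, adjusted p = 0.0036). Anxa3 had 5.62, 5.70 and 5.52 on induced and 6.87, 6.80 and 6.66 on uninduced arrays, a change of -1.16 (SE 0.10, adjusted p = 3.9e-04). The 4 other Anxa3 probes gave -1.32 to -1.58, all called. Anxa5 had 4.77, 4.74 and 4.41 on induced and 6.12, 5.77 and 5.64 on uninduced arrays. The change of Anxa5 was -1.20 (SE 0.15, adjusted p = 0.0016), and late induced cells differed from fresh hepatocytes by -0.021 with overlapping arrays, a difference that was not tested. For this difference from fresh the 3 alternatives ranged from -0.021 to 0.56, so its size depended on the processing.

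Anxa1 had levels of 5.90, 6.05 and 5.95 on induced and of 6.17, 5.71 and 5.84 on uninduced late arrays. The groups overlapped, and the change of Anxa1 was 0.064 (95% interval -0.27 to 0.40, adjusted p = 0.80). Anxa13 had 1.59, 2.10 and 3.23 on induced and 2.97, 3.84 and 2.93 on uninduced arrays. Replicate 3, the passage-11 array, was the highest of the induced arrays. It was also the only late array on slide 7, so passage and slide cannot be told apart for it. The change of Anxa13 was -0.94 (95% interval -2.14 to 0.27, adjusted p = 0.26). Anxa2, Anxa4, Anxa6, Anxa7 and Anxa11 changed by -0.10, 0.042, 0.27, 0.15 and -0.23, none of them called. Slide 6 held all late arrays but induced replicate 3. Within slide 6 the changes were 2.55 for Anxa8, -1.11 for Anxa3, -1.09 for Anxa5 and -1.40 for Anxa13 (adjusted p = 0.086). Stellate and fibroblast marker sums were 9.97 to 12.6 on induced and 12.7 to 15.6 on uninduced late arrays, with Col1a1, Col3a1, Lum and Pdgfrb not well above background on any late array. Dcn of the same list went the other way, at -2.49 on induced arrays (3 of 3 well above background) and -5.72 on uninduced arrays (1 of 3), and was called higher. For late induction 0 of the 9 hepatocyte markers tested (median 0.82) and 0 of 8 biliary and progenitor markers (median -0.49) were called. Over all genes 2.94% were called higher and 3.06% lower. The macrophage gene Csf1r was called lower (-1.32), and the part of these markers was not tested.

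The induction effect itself differed between passages for 2 annexins, both less negative in late cells. The test was the difference of late and P1 induction effects in 1 fit of all 21 arrays. Anxa1 differed by 3.13 (SE 0.43, adjusted p = 1.1e-04) and Anxa13 by 3.71 (SE 0.72, adjusted p = 0.0016). Over 22366 genes, 4.73% were called higher and 5.21% lower in this difference, and the median was 0.64 for the annexins and 0.01 over all genes. Every other probe tested for these genes was called the same way, at 3.04 and 3.08 for Anxa1 and 3.71 for Anxa13. Anxa4 (0.99, adjusted p = 0.0035) and Anxa3 (0.84, adjusted p = 0.012) lay under 2-fold, and the Anxa4 probe printed above gave 1.09 and was called. The smaller rise of Anxa8 in late cells was not called, with a difference of -1.59 (95% interval -2.77 to -0.41, adjusted p = 0.056). For Anxa5 the difference was 0.29 (95% interval -0.07 to 0.66), and for Anxa2 it was -0.17 (95% interval -0.69 to 0.35). Induced end states, which were not tested, were at least 2-fold higher in late than in P1 cells for 3 annexins, Anxa13 (2.78), Anxa1 (1.26) and Anxa4 (1.04), and lower for 0, where 9.36% and 13.8% of all genes were. The 3 alternatives gave 0.91 to 1.45 for Anxa1, so its 2-fold difference did not hold in all of them. In the same comparison Anxa3 differed by -0.016 and Anxa8 by -0.31.

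Culture for 8 days without the inducers raised Anxa8 alone among the 10 annexins, in P1 and in late cells. In the P1 comparison 6.28% of all genes were called higher and 4.87% lower, and in the late comparison 8.19% and 6.37%. The median change of the annexins was 0.31 in P1 and -0.44 in late cells, beside -0.0011 and -0.016 over all genes. The uninduced arrays are shared with the induction comparisons, so the changes are not independent of those above. On P1 uninduced day-8 arrays Anxa8 was at 2.95, 2.91 and 2.60, against 0.89, 1.26 and 1.99 on P1 day-0 arrays. The change was 1.44 (SE 0.36, adjusted p = 0.010). It was 1.85 within slide 4, with 2 arrays of each of these groups, and 0.61 within slide 5, with 1 array of each. On late uninduced arrays Anxa8 was at 5.02, 3.61 and 3.68, against -1.60, -2.0 and -1.30 on late day-0 arrays, and it rose 53.2-fold (log2 change 5.73, SE 0.38, adjusted p = 2.3e-05). No array of one group reached the other at either passage. The late effect exceeded the P1 effect by 4.29 (SE 0.55, adjusted p = 2.3e-04), where 1.74% of all genes were called higher and 1.11% lower. Late day-0 cells were 3.01 below P1 day-0 cells in Anxa8 and 1.28 above in Anxa13, the only 2 annexins at least 2-fold apart there (4.83% of all genes were higher and 10.4% lower), which was not tested.

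The other annexins changed by under 2-fold without inducers, apart from Anxa13 in late cells. Anxa13 had 2.97, 3.84 and 2.93 on late uninduced arrays and 3.64, 4.98 and 5.14 on late day-0 arrays. Its change of -1.34 was not called (adjusted p = 0.070), and with the replicate number as a block, which pairs the late arrays, it was (adjusted p = 0.032). Anxa2 changed by -0.82 in P1 cells (adjusted p = 0.0017) and by -0.85 in late cells (adjusted p = 0.0074), with all day-8 arrays below all day-0 arrays. The Anxa2 probe printed above gave -1.06 and -1.18, both called. Anxa6 changed by 0.50 in P1 cells (adjusted p = 0.0064) and 0.83 in late cells (adjusted p = 0.0015). Late Anxa3 changed by -0.71, and 2 of its other probes passed the fold threshold, at -1.0 and -1.43. Late Anxa4 changed by 0.73 (adjusted p = 0.0098), and 2 of its dimmer probes were called, at 1.05 and 1.32. Late Anxa1 and Anxa5 changed by -0.54 and -0.63, and P1 Anxa1, Anxa3, Anxa4, Anxa5 and Anxa13 by 0.66, -0.16, 0.12, -0.09 and 0.87. A dim clone probe of Anxa1 gave 1.64 in P1 cells and was called, and 0.64 in late cells, opposite in sign to the brightest probe and not called. The late minus P1 difference of these changes was -1.21 for Anxa1, not called, while its intron-crossing probe gave -1.11 and was called.

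From day 0 to the induced day-8 state, Anxa1 (-2.41), Anxa3 (-2.16), Anxa5 (-1.59) and Anxa13 (-3.77) fell and Anxa8 (5.59) rose in P1 cells, where 12.5% of all genes were called higher and 10.5% lower. In late cells Anxa8 (8.29) and Anxa6 (1.1) rose and Anxa3 (-1.87), Anxa5 (-1.83) and Anxa13 (-2.28) fell, where 11.1% and 9.61% were called. The annexin medians were -0.79 in P1 and -0.53 in late cells, beside 0.06 and 0.05 over all genes. The rise of Anxa8 in late cells was 314-fold, the widest change of an annexin between CLiP stages of one passage in these arrays. Anxa1 changed by -0.48 in late cells (adjusted p = 0.023), under 2-fold, and its dim clone probe went the other way, at 0.60, not called. Anxa2 changed by -0.75 in P1 cells and -0.95 in late cells, and its intron-crossing probe was called in both, at -1.12 and -1.39.

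The order of the groups differed between genes. Anxa1 was highest in P1 uninduced cells, Anxa2, Anxa3 and Anxa5 in P1 day-0 cells, Anxa13 in late day-0 cells, and Anxa8 in P1 induced cells. The ranges of neighbours overlapped at the top for Anxa3 (P1 day 0 and P1 uninduced), Anxa5 (the same pair), Anxa8 (P1 induced and late induced) and Anxa13 (late day 0 and P1 uninduced). For Anxa4, the late induced, late uninduced, P1 uninduced and P1 day-0 arrays overlapped in turn at the top, with fresh lowest and apart. By the brightest probes, group means of Anxa7 spanned 0.44 and those of Anxa11 0.84, the narrowest spans of the 10 genes. The dimmest Anxa7 probe spread more widely, from 0.59 on fresh to -1.65 on late day-0 arrays.

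Among the 22366 genes tested over all arrays, the genes most like Anxa3 by Pearson correlation over the 21 arrays were the tubulin gene Tubb2b (r = 0.998), Ankrd1 (0.995), the cyclin gene Ccnd2 (0.994) and the tropomyosin gene Tpm4 (0.994). Over the 18 CLiP arrays alone, these values were 0.980, 0.947, 0.945 and 0.950. Anxa2 was most like Kdelr3 (0.994), Acot9 (0.994), the mitochondrial carrier gene Slc25a4 (0.993) and Tagln2 (0.992), with 0.827, 0.961, 0.839 and 0.854 over the CLiP arrays. For Anxa1 they were A430105I19Rik (0.992), Elovl7 (0.991), Nbea (0.991) and the cell cycle inhibitor gene Cdkn2a (0.990), with 0.885, 0.839, 0.854 and 0.858. All of these rest on arrays that fall into groups, with the fresh arrays far from the rest, and they are descriptions only. Between members, Anxa1 and Anxa3 gave 0.987 over all arrays and 0.812 over CLiP arrays, and Anxa1 and Anxa2 gave 0.964 and 0.310.

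Genes linked to annexins by binding or by the plasminogen system were taken from a list of 20, of which 18 could be tested in P1 cells. P1 induction raised 1 and lowered 7 of the 18, with a median of -0.51, where 9.68% and 9.02% of all genes were called and the median was 0.05. Plau, the urokinase gene, changed most, averaging -3.73 ± 0.73 on induced and 3.78 ± 0.24 on uninduced P1 arrays (SD, n = 3 each), a change of -7.51 (adjusted p = 4.8e-08), though it was well above background on only 1 of 3 induced arrays. The gene of its receptor, Plaur, fell by 3.00 (adjusted p = 2.1e-07) and Plat, the tissue plasminogen activator gene, by 3.59 (adjusted p = 1.6e-07). Plasminogen itself, encoded by Plg and made by hepatocytes, rose by 4.45 (adjusted p = 9.3e-08). Pla2g4a, a phospholipase A gene, fell by 2.13 (adjusted p = 0.014), and the S100 gene S100a4 changed by -1.82 (adjusted p = 0.0089). The S100 partners named for Anxa2 and Anxa1 were not called: S100a10 changed by -0.19 and S100a11 by -0.53.

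**Figure D4:**
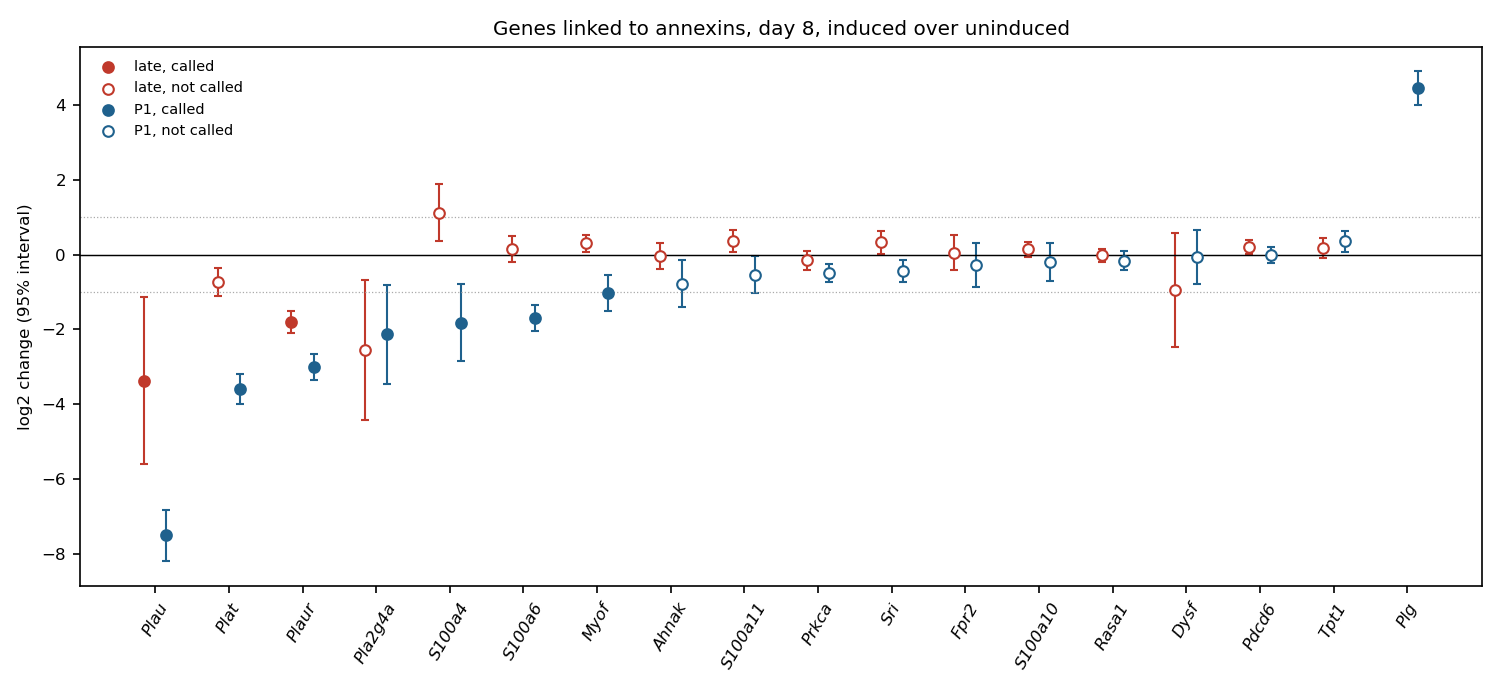
Log2 changes of induced over uninduced day-8 cells (y axis, with 95% intervals from limma) for the listed annexin-linked genes tested in P1 cells (x axis, in order of the P1 change), late in red and P1 in blue. Filled points were called and dotted lines mark 2-fold. Plau and Plaur fall at both passages, and Plg rises at P1 and was not tested in late cells.

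In late cells induction lowered 2 of 17 such genes, Plau (-3.37, adjusted p = 0.046) and Plaur (-1.80, adjusted p = 1.8e-04), and raised none, with a median of 0.05, where 3.06% of all genes were called lower and 2.94% higher. Late Plau was well above background on 2 of 3 induced arrays. The difference of the induction effects was called higher for 6 of the 18 and lower for 1, where 4.73% and 5.21% of all genes were called. Those called higher included Plau (4.14), S100a4 (2.94), Plat (2.86), S100a6 (1.84) and Myof (1.33). The one called lower was Plg, which was not well above background on all arrays of any late group, so its late change is not measured and no size is given. Without inducers, S100a4 and Plaur fell at both passages, by 2.91 and 1.40 in P1 cells and by 3.64 and 1.86 in late cells. The family members Anxa9 and Anxa10, which lie outside the 10 genes, were also looked up: Anxa9 was not called in any tested comparison, and Anxa10 was not well above background on all arrays of any group.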

How the data were processed

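Expression was measured on 21 one-colour Agilent arrays, 3 in each of 7 groups taken from the sample titles. Per the file headers, the deposited scanner files hold processed intensity values, background-subtracted and detrended by Agilent Feature Extraction (11.5.1.1 for fresh and P1 arrays, 10.7.3.1 for late arrays), without scaling between arrays. Both deposited tables of the authors hold log2 values: the first equals log2 intensity minus the 75th percentile of the array (56605 probes), and the second (40786 rows) was also centred on each probe's median. Scale and direction were checked against the scanner files, and the tables served as an alternative. Tools for other steps are not given in the sources used here.

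Here control and outlier spots were left out, spots of a probe averaged, and the 75th percentile subtracted from the log2 intensity. No spot was saturated. A gene was tested if its brightest probe was well above background on all arrays of at least 1 group of the fit. Linear models of the group means (limma 3.58.1 in R 4.3.3, lmFit and eBayes) took in the 12 fresh and P1 arrays, the 9 late arrays or, for differences of effects, all 21. A probe not above background on any array of a group has only a bound there, set by the lowest signal well above background. The fits were tested on simulated data.

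The 10 genes, the lists, tests and alternatives were chosen with earlier results of these data known. Named were all 10 annexins, up to 6 called genes of the linked list per comparison, and the 4 genes most correlated with Anxa1, Anxa2 and Anxa3. Late replicate numbers pair the arrays: same-numbered late arrays deviated together (correlations 0.25 to 0.55), and number 3 marks passage 11 in the labels. P1 day-0 and uninduced arrays did too (0.21 to 0.46), but induced P1 arrays did not in every pair (lowest -0.11). Alternatives were quantile normalization, normexp (offset 50; mean spot signals, for late arrays median ones), the mean of all probes, no filter, only the groups compared, replicate and slide blocks, single slides, leaving out each array, and the authors' tables. For differences from fresh hepatocytes the first 3 of these were run. P-values measure the spread between these arrays, whose number limits precision. Figures were drawn with matplotlib 3.10.9 in Python 3.11.15.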

Additional observations from a re-analysis of the deposited data

Results flagged for a closer look

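The effect of induction on Anxa1 differed between late and P1 cells by 3.135 on the log2 scale, the difference of the 2 effects having been tested in limma over all 21 arrays (adjusted p = 1.1e-04). Induced late arrays were not all on one side of the uninduced ones, while all induced P1 arrays were below. Over its 19 alternatives the difference ranged from 2.43 to 3.27 and the adjusted p from 7.3e-08 to 5.0e-04.

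Anxa13 differed in the same contrast by 3.7102 (adjusted p = 0.0016), with 3.25 to 4.07 over its 19 alternatives and adjusted p from 2.4e-04 to 0.0057. Its late arrays spread widely, with an SD of 0.84 among induced and 0.51 among uninduced arrays.

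The change of Anxa8 over 8 days without inducers was larger in late than in P1 cells by 4.2923 (adjusted p = 2.3e-04), with 3.83 to 4.54 over its 19 alternatives and adjusted p from 2.6e-05 to 0.0029. Passage, slide, scanner and software version coincide in all 3 results and cannot be told apart.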

How the results depend on the processing

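Counts of annexins stayed within 1.5 times in 263 comparisons with an alternative and moved further in 17, and no called annexin changed sign. These were counts of calls and, at day 0, of untested 2-fold higher levels (P1 against fresh, late against P1). Equal counts of 0 were taken as unchanged. Among untested differences of single annexins, from fresh or between passages, 113 values moved by at least the SD of their arrays. Leaving out each array in turn, P1 induction gave 1 higher and 4 to 5 lower, late induction 1 and 2, P1 uninduced culture 1 and 0, and late uninduced culture 1 higher and 0 to 1 lower. Induced against day 0 gave 1 and 4 in P1 and 2 and 3 to 4 in late cells. The difference of induction effects gave 2 to 3 higher and 0 to 1 lower, and that of uninduced effects 1 and 0 to 1. In P1 uninduced culture Anxa8 changed by 0.61 within slide 5, under 2-fold, where 1 array of each group was compared. Late uninduced culture counted 2 higher by quantile normalization (Anxa6, 1.04) and by the mean of all probes (Anxa4, 1.02). It counted 1 lower, Anxa13 at -1.34, with the replicate block, with slide as a block and within slide 6, and at -1.81 without late day-0 replicate 1. Both slide settings set aside the single array of slide 7, so they are not separate checks. Late induced against day 0 counted 1 higher by the mean of all probes (Anxa6, 0.98). The difference of induction effects counted 4 higher by quantile normalization (Anxa3 1.01, Anxa4 1.18), and 1 lower, Anxa8, by normexp (-1.54), with only the groups compared (-1.59) and without late uninduced replicate 2 (-1.84) or 3 (-1.80). The difference of uninduced effects counted 2 lower, Anxa1 and Anxa13, by normexp (-1.22 and -2.24), with only the groups compared and with slide as a block (-1.21 and -2.21 in both), and 1 without late day-0 replicate 1 (Anxa13, -2.69). The cause of these moves was not tested. The replicate block changed no other call. The authors' tables were not run for differences of effects, since the tables were normalized separately. Dim fresh arrays limit the values of Anxa1, Anxa8 and Anxa13 to bounds.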
